A study of Mus musculus with 8 samples.

Results

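Amino acid transporters are membrane proteins that bring amino acids into a cell, exchange them across the plasma membrane or move them out of the lysosome. The 10 genes described here, Slc3a2, Slc7a5, Slc7a6, Slc7a7, Slc7a11, Slc7a1, Slc1a5, Slc38a1, Slc38a2 and Slc38a9, were chosen by name as transporters that lymphocytes use. All 10 are among the 24746 genes of the table, and 9 of them had enough counts to be tested, Slc7a11 being the exception. They were measured by RNA sequencing in FACS-sorted bone marrow cells from mice aged 10 to 12 weeks. In 4 mice both miR-15/16 clusters were floxed on both alleles (genotype miR-15a/bfl/fl Vav-Cre, called miR-15 dKO and below dKO), and in 4 control mice the clusters were wild type (miR-15a/b+/+ Vav-Cre). Both groups therefore carried Vav-Cre, a transgene that drives Cre recombinase in blood-forming cells and all their descendants, so the deletion was not confined to B cells. The series title places the study in early B cell development and IL-7 receptor expression.

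Several of these proteins work as pairs. Slc3a2 encodes the heavy chain CD98hc (4F2hc), a glycoprotein that carries a light chain of the Slc7 family to the cell surface, and the light chain does the transport. Uptake of leucine and glutamine feeds the kinase complex mTORC1, and lymphocytes are known to raise several of these transporters when they are activated and start to grow. Slc38a9 differs from the rest in sitting on the lysosome, where it senses arginine.

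By their sample labels the cells are B1a B cells, but by the series text they are pro-B cells. B cell transcripts were high in every library, with summed levels of 8 B cell markers of 22115 to 24289.6 CPM in dKO and 23129 to 26204.5 CPM in control libraries (CPM, read counts scaled to a common library total after TMM normalisation). A mean level of 1 CPM or more was reached by 15 of 16 markers of B-1a cells, 12 of 12 of follicular B-2 cells and 5 of 15 of pro-B cells. The 5 pro-B markers were Vpreb1, Vpreb3, Il7r, Lef1 and Flt3. Those under 1 CPM included Rag1 and Rag2, which averaged 0 CPM in dKO and 0.0337 and 0.0168 CPM in control libraries. Igll1 averaged 0.235 CPM in dKO and 0.380 CPM in control libraries, and Kit had no count in any library. Library totals ran from 25565090 to 34954230 counts. Control 2 and control 4 stood apart from the other libraries. Their follicular B-2 markers summed to 3326 and 2820.0 CPM, against 1552 to 1887 CPM in the dKO libraries and 1606 and 1479.8 CPM in control 1 and control 3. Their B-1a markers summed to 924 and 1268 CPM, against 2633 to 3326 CPM in the dKO libraries and 2851 and 2121 CPM in control 1 and control 3. Without Lgals1, the most abundant B-1a marker, the sums were 780 and 1006 CPM, against 1944 to 2450 CPM and 2031 and 1423 CPM. Control 3 lay below the dKO range in both sums. Of the 16 B-1a markers 15 had positive log2 fold changes, beside 47.7% of all tested genes. In 4 of them every dKO library lay above every control, beside 4.00% of all tested genes. EdgeR called 1 B-1a marker, Ctla4 (adjusted p = 0.045), and DESeq2 and limma voom called 4 each. Of the 12 follicular B-2 markers 11 had negative log2 fold changes, and 5 had an unadjusted p under 0.05 in edgeR. Of these 12, DESeq2 called 1 and edgeR and limma voom none, and the groups overlapped in all of them. Fold changes that move by over 1.5 times when control 2 and control 4 are left out are given with and without them. Dleu2, the long RNA from which miR-15a is processed, averaged 90.3 ± 16.3 CPM in dKO and 17.96 ± 5.95 CPM in control libraries (mean ± SD, 4 libraries per group), for a log2 fold change of 2.33 with an SE of 0.24 (edgeR adjusted p = 0.0065). Smc4, listed with Dleu2 as a host gene of the miR-15/16 clusters, averaged 134.2 ± 24.2 CPM in dKO and 126.6 ± 39.2 CPM in control libraries. The groups overlapped, with a log2 fold change of 0.08 and an SE of 0.23 (edgeR adjusted p = 0.94). It was 0.36 (adjusted p = 0.56) without control 2 and control 4. The microRNA precursor genes had no counts in any library, so the genotype was not checked at the deleted sequences.

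The microRNAs targeted in the dKO mice are shown here because microRNAs mostly recognise transcripts through their seed, bases 2 to 8, set in capitals (RefSeq, GRCm38.p6, written 5′ to 3′). miR-15a (chr14:61632075-61632096, minus strand) lies beside 1 copy of miR-16 (chr14:61631936-61631957, minus), and miR-15b (chr3:69009775-69009796, plus) beside the other (chr3:69009918-69009939, plus).
mmu-miR-15a-5p: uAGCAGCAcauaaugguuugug
mmu-miR-15b-5p: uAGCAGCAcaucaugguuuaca
mmu-miR-16-5p: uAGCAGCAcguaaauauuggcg
All 3 share the seed, so a single search, for TGCTGCT on the transcript strand, covers them. The longest annotated 3′ UTR of Slc38a9, Slc7a1, Slc38a2 and Slc7a11 held it, which is 4 of 10 members, and those of the other 6 members did not. Of the 10672 tested genes with an annotated 3′ UTR, 24.7% held it, and of the 444 whose 3′ UTR was at least 5000 bases long 68.5% did. Slc7a1 (5030 bases), Slc38a9 (7085) and Slc7a11 (7364) are of that length, and so is Slc38a1 (5293), which had no match. The sites of the 3 members that were tested are given with their flanking bases as DNA, the matched letters in capitals, from the GENCODE M21 transcripts.
Slc38a9, base 2437 of the UTR: accttatcactcTGCTGCTAcggccggcct
Slc7a1, base 718: tgggttggctttTGCTGCTcttggcgcctt
Slc7a1, base 916: gagtcctcccccTGCTGCTtgctgtgaatc
Slc7a1, base 1089: ggtgcctttgccTGCTGCTggtgagatttc
Slc38a2, base 1806: gacactcccccaTGCTGCTtacttgtcatc
The Slc38a9 site is the only one among the members in which the match is followed by A, the 8-base form that 4.49% of the tested genes carry, and 19.4% of those with a 3′ UTR of at least 5000 bases, such as Slc38a9. A match is a description of letters and does not show that a transcript was bound.

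No transporter gene passed an adjusted p of 0.05 between dKO and control in edgeR, in DESeq2 or in limma voom. This does not show that their levels were alike, and the 95% intervals given below say which differences the data allow. Over all genes, these tools called 0.0880% (10 of 11363), 2.84% (322 of 11355) and 2.48% (282 of 11363). At an unadjusted p under 0.05 in edgeR, 3 of the 9 tested members were higher in the dKO libraries (Slc38a9, Slc1a5 and Slc7a1) and none was lower, where 10.8% of all tested genes passed in either direction. The dKO and control libraries overlapped in every member. All dKO libraries lay above all controls in 4.00% of the tested genes and below them in 2.96%. The log2 fold change was positive in 6 of the 9, with a median of 0.40, beside 47.7% positive and a median of −0.02 over all genes tested. The replicates are 4 mice per group.

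**Figure D1:**
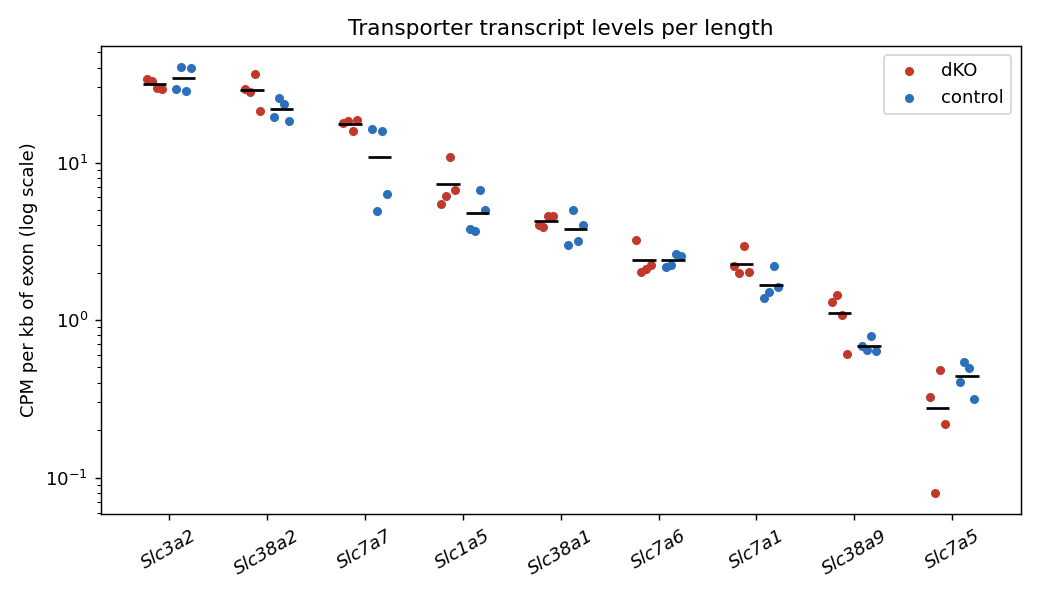
TMM-scaled CPM per kb of annotated exon on a log axis for the 9 tested transporter genes, ordered by their dKO mean. Each point is 1 library (red dKO, blue control) and each bar a group mean. Slc3a2 and Slc38a2 stand highest and Slc7a5 lowest in both genotypes.

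Compared per length of exon, which allows levels of different genes to be set side by side, the members stood in the same order in dKO and control libraries. In the dKO libraries the order ran from Slc3a2 (31.4 ± 2.35 CPM per kb, SD, n = 4) and Slc38a2 (28.7 ± 6.14) over Slc7a7 (17.6 ± 1.23), Slc1a5 (7.29 ± 2.46) and Slc38a1 (4.28 ± 0.356) to Slc7a6 (2.40 ± 0.556), Slc7a1 (2.28 ± 0.445), Slc38a9 (1.10 ± 0.366) and Slc7a5 (0.276 ± 0.169). In the controls the same genes stood at 34.6 ± 6.48, 21.8 ± 3.42, 10.8 ± 6.07, 4.799 ± 1.41, 3.79 ± 0.897, 2.40 ± 0.222, 1.68 ± 0.363, 0.688 ± 0.0697 and 0.439 ± 0.101 CPM per kb (SD, n = 4). Neighbours whose ranges over the libraries of a group overlapped were Slc3a2 and Slc38a2 in the dKO libraries and Slc7a6 and Slc7a1 in both groups. Such ranges do not compare neighbours within a library, so an overlap does not show that their levels were alike. In the controls Slc7a7 overlapped with Slc1a5, and Slc1a5 with Slc38a1. With the longest annotated transcript as the length, Slc38a2 (41.5 ± 8.88) stood above Slc3a2 (39.4 ± 2.95) in the dKO libraries, while Slc3a2 (43.3 ± 8.12) stayed above Slc38a2 (31.5 ± 4.95) in the controls. By that length Slc1a5 also stood above Slc38a1, and Slc7a1 above Slc7a6, in the dKO libraries, and both pairs were reversed in the controls. The shared order thus holds for the first length only.

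The heavy chain gene Slc3a2 was one of the most abundant members in both genotypes. It was at 119.2, 116.6, 104.4 and 103.0 CPM in dKO 1 to 4, against 103.5, 142.2, 100.8 and 141.2 CPM in control 1 to 4. The dKO libraries and control 1 and control 3 lay close together, and control 2 and control 4 lay above them. The log2 fold change was −0.14 ± 0.16 (SE, 95% interval −0.48 to 0.21, adjusted p = 0.83). It was 0.12 (adjusted p = 0.77) without control 2 and control 4, −0.06 without either one of them, −0.22 without control 3, and 0.05 (adjusted p = 0.94) once a score of the follicular markers entered the model. Over all 8 libraries, the 3 genes of 7588 compared (mean of at least 5 CPM) whose log2 CPM followed Slc3a2 most closely were the MHC class II genes H2-Eb1 (Pearson r = 0.98) and H2-Aa (0.97), and Fchsd2 (0.97). These were the best of many and share with Slc3a2 their high values in control 2 and control 4.

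Among the light chains, Slc7a7 carried most of the transcript. It encodes y+LAT1, which exchanges cationic for neutral amino acids. Slc7a7 was at 59.0, 60.7, 52.6 and 61.6 CPM in dKO 1 to 4, against 54.0, 16.3, 52.4 and 20.8 CPM in control 1 to 4. Control 1 and control 3 reached the level of the dKO libraries, and control 2 and control 4 were far lower, so the control mean of 35.9 ± 20.1 CPM (SD, n = 4) describes neither pair. The dKO mean was 58.5 ± 4.07 CPM (SD, n = 4). The log2 fold change of 0.71 ± 0.36 (SE, 95% interval −0.09 to 1.497, adjusted p = 0.54) became 0.14 (adjusted p = 0.73) without control 2 and control 4, and 0.34 (adjusted p = 0.48) once a score of the follicular markers entered the model. Leaving out control 2 alone gave 0.46 and leaving out control 4 alone 0.52. It was 0.98 without control 1, 0.95 without control 3 and 1.01 in limma voom (adjusted p = 0.094). The 2 libraries low in Slc7a7 are those high in follicular B-2 and low in B-1a markers, and the part of cell composition in the difference was not tested. The exons of Slc7a7 share 232 bases with Oxa1l on the other strand, which was at 53.5 and 51.4 CPM in control 2 and control 4 and at 43.2 to 56.6 CPM in the other libraries. In bulk libraries, fewer cells of a type and less RNA per cell cannot be told apart. Macrophages also express Slc7a7. The 14 myeloid markers, none at 0 in all libraries, summed to 545 to 2310 CPM in dKO and 570.1 to 5268 CPM in control libraries, and Lyz2 made up most of each sum. The 13 others summed to 154.9 to 206.1 CPM in dKO and 63.4 to 227.3 CPM in control libraries, with 63.4 CPM in control 2 and 227.3 CPM in control 4. Of these, Cd68 was at 57.9 to 98.3 CPM in dKO libraries, against 77.6, 24.3, 70.9 and 42.5 CPM in control 1 to 4. It was lowest in control 2 and control 4, and so was Itgam (5.99 and 5.78 CPM). Other markers went another way, as C1qa (92.8 CPM), S100a9 (42.9 CPM) and Lyz2 (5041 CPM) were highest of all libraries in control 4. The part of myeloid cells in the Slc7a7 values was not tested.

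**Figure D2:**
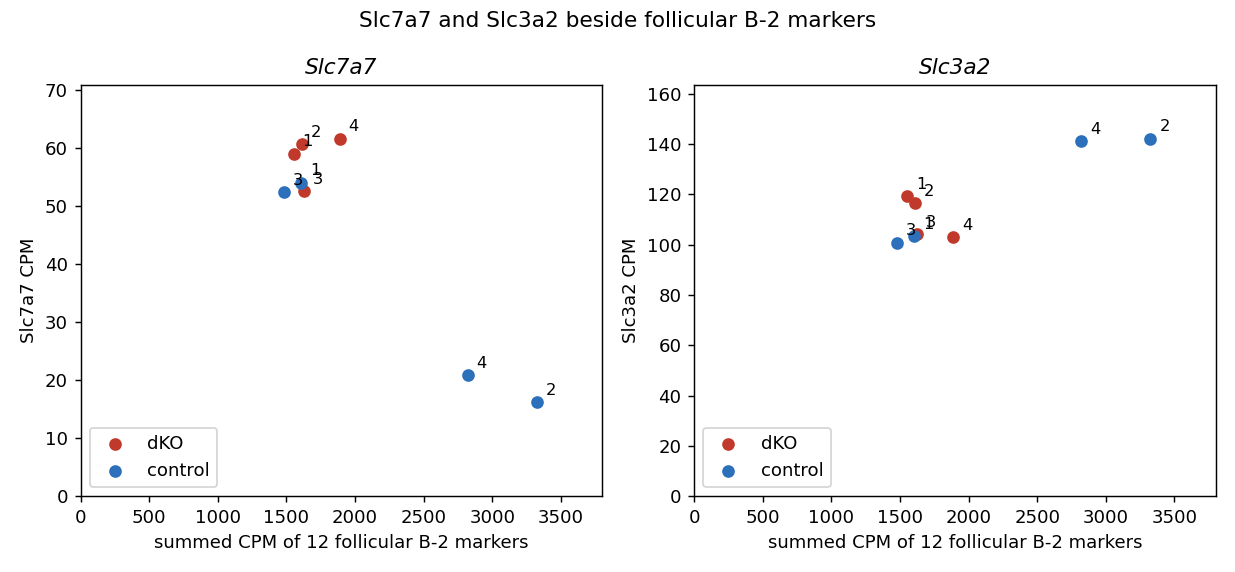
CPM of Slc7a7 (left) and Slc3a2 (right) against the summed CPM of 12 follicular B-2 markers, 1 point per library with its replicate number (red dKO, blue control). Control 2 and control 4 sit apart from the other 6 libraries, low in Slc7a7 (16.3 and 20.8 CPM) and high in Slc3a2 (142.2 and 141.2 CPM).

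Slc7a6 encodes y+LAT2, a light chain with similar substrates. Slc7a6 was at 14.7, 9.28, 9.59 and 10.2 CPM in dKO 1 to 4, against 9.99, 10.2, 12.0 and 11.7 CPM in control 1 to 4. Apart from dKO 1, the libraries of both genotypes lay within a narrow range, and the log2 fold change was 0.00 ± 0.20 (SE, 95% interval −0.44 to 0.43, adjusted p = 0.998), and −0.0020 without control 2 and control 4. Slc7a6 did not share the low values of Slc7a7 in control 2 and control 4.

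Slc7a5, which encodes LAT1, the leucine importer known to be raised on lymphocyte activation, was low in every library. Its raw counts were 42, 8, 52 and 24 in dKO 1 to 4, against 41, 60, 52 and 40 in control 1 to 4, or 1.20, 0.297, 1.79 and 0.817 CPM against 1.49, 2.02, 1.83 and 1.17 CPM. The dKO libraries spread 6.01-fold, and dKO 1 and dKO 3 lay within the control range. On the log2 scale the fold change was −0.66 ± 0.52 (SE, 95% interval −1.81 to 0.48, adjusted p = 0.73), and leaving out 1 library moved it between −1.07 (without dKO 3) and −0.36 (without dKO 2). Slc7a11, the cystine and glutamate exchanger xCT, had no count in any dKO library, and 2, 0, 0 and 2 counts in control 1 to 4. At this depth 3 counts correspond to 0.0858 to 0.117 CPM, so both groups were at or under the floor and no fold is given.

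The balance of light chains was therefore led by Slc7a7 in both groups. Summed per kb over Slc7a5, Slc7a6, Slc7a7, Slc7a8, Slc7a10 and Slc7a11, Slc7a7 made up 83.3, 89.6, 86.0 and 87.9% of the light chain transcript in dKO 1 to 4, against 86.3, 63.8, 83.5 and 68.1% in control 1 to 4. Slc7a6 made up 15.1, 9.94, 11.4 and 10.6% in dKO 1 to 4, against 11.6, 29.1, 13.9 and 27.8% in control 1 to 4. Slc7a5 made up 1.51, 0.392, 2.61 and 1.04% in dKO 1 to 4, against 2.13, 7.08, 2.61 and 3.43% in control 1 to 4. For all 3 light chains control 1 and control 3 lay in the dKO range, and control 2 and control 4 lay outside it. Slc3a2 exceeded this sum 1.58-, 1.62-, 1.60- and 1.38-fold in dKO 1 to 4, against 1.55-, 5.24-, 1.51- and 4.34-fold in control 1 to 4. The ratio was thus alike in 6 libraries and higher in control 2 and control 4, and the difference between the groups did not pass an exact two-sided permutation test (p = 0.29, where the smallest possible is 0.0286). Control 2 and control 4 were high in Slc3a2 and low in Slc7a7 and form a cluster of their own. For that reason no correlation of Slc3a2 with its light chains over all 8 libraries is given. The values for H2-Eb1, H2-Aa and Fchsd2 above do cover all 8 libraries and rest in part on this cluster. The relation of Slc3a2 to its light chains within the other 6 was computed on log2 CPM. Pearson's r was 0.58 with Slc7a7 (Spearman's rho 0.31), 0.35 with Slc7a6 (rho −0.14) and −0.58 with Slc7a5 (rho −0.49). The exact permutation p for r was 0.32, 0.56 and 0.28 (0.48, 0.56 and 0.48 adjusted over the 3), and that for rho 0.56, 0.80 and 0.36 (0.80 each when adjusted). None of these relations passed. Control 2 and control 4 were left out because they lay farthest from the median of Slc3a2 itself, after the values were seen. The 6 others pool both genotypes, so these values cannot show whether the genes vary together, and no conclusion is drawn.

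**Figure D3:**
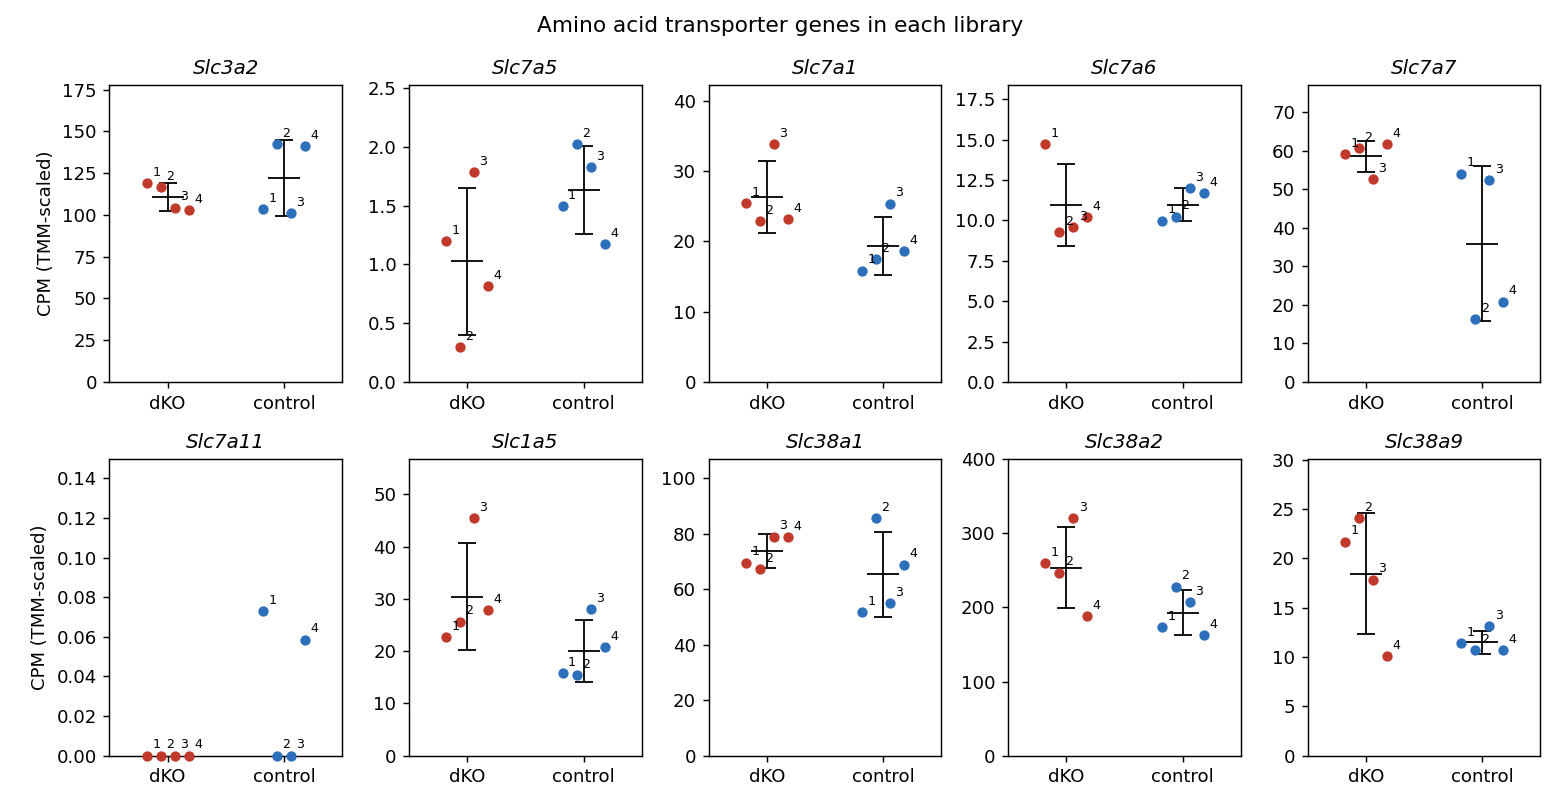
CPM of each of the 10 transporter genes in each library, numbered by replicate (red dKO, left; blue control, right), on linear axes from 0. Black marks give the mean and SD of 4 libraries, except for Slc7a11, which had 4 counts in all. Slc7a7 shows control 2 and control 4 far below the rest, and Slc38a9 shows dKO 4 below all controls.

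The gene with the smallest p among the members was Slc38a9, whose product passes the arginine level of the lysosome on to mTORC1. Slc38a9 was at 21.7, 24.1, 17.9 and 10.1 CPM in dKO 1 to 4, against 11.4, 10.7, 13.2 and 10.7 CPM in control 1 to 4. Of the dKO libraries, 3 lay above all controls and dKO 4 lay below all of them, while the controls were tightly grouped. Its log2 fold change was 0.68 ± 0.24 (SE, 95% interval 0.15 to 1.22, unadjusted p = 0.017, adjusted p = 0.32). It was 0.59 (adjusted p = 0.40) without control 2 and control 4. Without dKO 4 it was 0.88 (adjusted p = 0.10), and limma voom with quality weights gave 0.82 (0.092). Slc38a9 also holds the 8-base seed match shown above. Its exons share 182 bases with an antisense gene model, Gm47827. Whether counting used the strand is not stated, so reads of such overlapping genes cannot be told apart.

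Slc7a1 encodes CAT1, the main importer of arginine and lysine in many cells, and carries 3 seed matches. Slc7a1 was at 25.4, 22.9, 33.8 and 23.1 CPM in dKO 1 to 4, against 15.9, 17.5, 25.4 and 18.7 CPM in control 1 to 4. Each dKO library lay above 3 controls, and control 3 overlapped with the dKO range. Its log2 fold change was 0.44 ± 0.19 (SE, 95% interval 0.02 to 0.87, unadjusted p = 0.041, adjusted p = 0.43), 0.60 without control 3 and 0.30 without dKO 3.

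Slc1a5 encodes ASCT2, a sodium-dependent exchanger that takes up glutamine. Slc1a5 was at 22.7, 25.7, 45.5 and 27.9 CPM in dKO 1 to 4, against 15.8, 15.4, 28.0 and 20.8 CPM in control 1 to 4. It followed Slc7a1 in its extremes, with dKO 3 the highest of all libraries and control 3 the highest of the controls, above 3 dKO libraries. On the log2 scale the fold change was 0.60 ± 0.25 (SE, 95% interval 0.05 to 1.16, unadjusted p = 0.036, adjusted p = 0.42). Without dKO 3 it was 0.34 (adjusted p = 0.85), and in limma voom 0.35 (0.49).

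The system A transporters Slc38a1 (SNAT1) and Slc38a2 (SNAT2) import small neutral amino acids with sodium, and Slc38a2 is known to be raised when amino acids are short. Slc38a2, which has 1 seed match, was at 259.7, 246.9, 320.4 and 188.1 CPM in dKO 1 to 4, against 173.2, 228.0, 207.0 and 162.4 CPM in control 1 to 4. In 3 dKO libraries it lay above all controls and in dKO 4 within their range. Its log2 fold change was 0.40 ± 0.19 (SE, 95% interval −0.01 to 0.80, adjusted p = 0.48), and 0.27 without dKO 3. Slc38a1, without a match, was at 69.6, 67.2, 79.0 and 78.9 CPM in dKO 1 to 4, against 51.7, 85.7, 55.0 and 68.9 CPM in control 1 to 4. The dKO libraries fell between the extremes of the controls, with a log2 fold change of 0.17 ± 0.17 (SE, 95% interval −0.20 to 0.55, adjusted p = 0.80). Without control 2 and control 4 it was 0.47 (adjusted p = 0.23), and leaving out 1 control gave 0.33 (control 2), 0.09 (control 1) and 0.10 (control 3).

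The tested members with a seed match thus had log2 fold changes of 0.40, 0.44 and 0.68, and the 6 without one ran from −0.66 (Slc7a5) to 0.71 (Slc7a7). Slc1a5 (0.60) and Slc7a7, both without a match, lay in or above the range of the members that have it. These values are a description of 9 genes and carry no test.

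**Figure D4:**
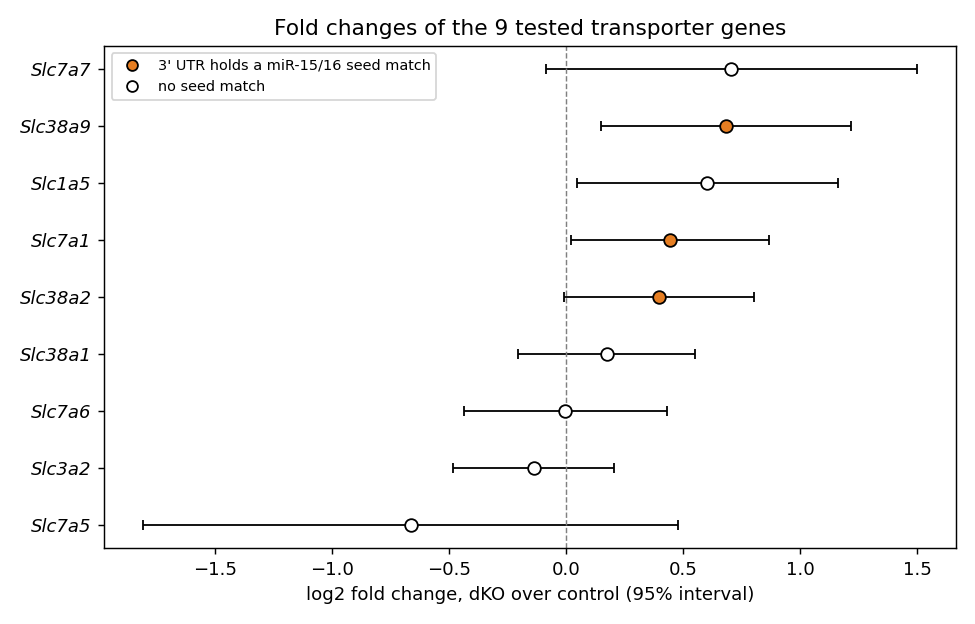
Log2 fold change of dKO over control with its 95% interval (edgeR, 4 libraries per group) for the 9 tested transporter genes, filled where the longest 3′ UTR holds a miR-15/16 seed match. The intervals of Slc38a9, Slc1a5 and Slc7a1 lie above 0 before adjustment over all genes, and none passes after it.

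Other amino acid transporters were mostly low or silent. Of 48 listed, 47 were in the table and 14 were tested, with 8 log2 fold changes positive, 6 negative, a median of 0.06 and no call. The most abundant was Slc43a2, the leucine transporter LAT4, with 37.8 ± 6.90 CPM in dKO and 32.1 ± 2.96 CPM in control libraries (mean ± SD, 4 libraries per group), for a log2 fold change of 0.24 with an SE of 0.16 (adjusted p = 0.67). The smallest p was that of Slc38a7, a lysosomal glutamine transporter, which was at 3.67, 3.04, 3.54 and 2.76 CPM in dKO 1 to 4, against 1.17, 2.12, 2.71 and 2.70 CPM in control 1 to 4. All dKO libraries lay above the controls, and the log2 fold change was 0.58 with an SE of 0.33 (adjusted p = 0.58). Slc43a1 (LAT3) and Slc15a3, a lysosomal peptide and histidine transporter, had log2 fold changes of −0.35 ± 0.34 and −0.41 ± 0.42 (SE, adjusted p = 0.80 and 0.81). For Slc15a3 it was −0.24 without control 2 and control 4, −0.13 without control 2 alone and −0.17 without dKO 3, and for Slc38a7 it was 0.38 without control 1.

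Genes of amino acid sensing at the lysosome, through which the level of Slc38a9 substrates reaches mTORC1, showed no call. Of 32 tested genes 17 were positive and 15 negative, with a median log2 fold change of 0.06. The 1 gene with an unadjusted p under 0.05 was Rraga, which encodes the Rag GTPase that recruits mTORC1. Rraga was at 53.6, 59.5, 44.9 and 65.3 CPM in dKO 1 to 4, against 68.4, 68.6, 75.3 and 108.0 CPM in control 1 to 4. All dKO libraries lay below the controls, and the log2 fold change was −0.52 with an SE of 0.18 (adjusted p = 0.32), with a sign opposite to that of Slc38a9. Nprl3, a subunit of the GATOR1 inhibitor of this pathway, averaged 12.1 ± 1.60 CPM in dKO and 9.31 ± 0.625 CPM in control libraries (mean ± SD, 4 libraries per group), for a log2 fold change of 0.37 with an SE of 0.18 (adjusted p = 0.48). Lars, the leucyl-tRNA synthetase, and Bmt2, a sensor of S-adenosylmethionine, had log2 fold changes of 0.34 ± 0.16 and 0.38 ± 0.19 (SE, adjusted p = 0.49 and 0.53). Lamtor5, of the Ragulator scaffold, was the most abundant of the list with 371.8 ± 46.8 CPM in dKO and 402.6 ± 132.1 CPM in control libraries (SD, n = 4 each, adjusted p = 0.91). Its log2 fold change was −0.11, −0.39 without control 2 and control 4, and 0.13 without control 1. Leaving out control 4 gave −0.34 for Rraga, and leaving out dKO 2 gave 0.24 for Bmt2.

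Genes of the amino acid response, which the factor ATF4 induces when amino acids are short and to which Slc7a11, Slc3a2 and Slc38a2 are also known to belong, had more negative than positive values. Of 31 tested genes 10 were positive and 21 negative, with a median of −0.10 and no call in edgeR, where 2 had an unadjusted p under 0.05. Over all tested genes 47.7% were positive and 10.8% had an unadjusted p under 0.05 in edgeR. Herpud1, a gene of protein quality control in the endoplasmic reticulum, was at 107.8, 99.0, 90.1 and 105.3 CPM in dKO 1 to 4, against 137.3, 156.7, 136.5 and 147.3 CPM in control 1 to 4. The groups did not overlap (log2 fold change −0.52 ± 0.13, SE, edgeR adjusted p = 0.14), and DESeq2 (0.0086) and limma voom (0.048) called it lower. Psat1, of serine synthesis, averaged 4.59 ± 1.19 CPM in dKO and 7.95 ± 1.68 CPM in control libraries (mean ± SD, 4 libraries per group), for a log2 fold change of −0.79 with an SE of 0.25 (adjusted p = 0.24), and limma voom called it (0.039). Ppp1r15a, a phosphatase subunit that ends the response, had a log2 fold change of −0.54 ± 0.28 and Phgdh, the first enzyme of serine synthesis, one of 0.31 ± 0.17 (SE, adjusted p = 0.54 and 0.56). Without control 2 and control 4 they were −0.18 and 0.14 (adjusted p = 0.83 and 0.78), and for Ppp1r15a leaving out control 2 alone gave −0.28.

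MYC is known to drive Slc7a5 and Slc1a5 in growing lymphocytes. Of 12 tested genes of MYC and cell growth 4 were positive and 8 negative, with a median of −0.15, no call in edgeR and 1 unadjusted p under 0.05 (Mxd4). The shares over all tested genes are those given for the ATF4 genes. Myc was at 113.4, 103.9, 106.8 and 84.3 CPM in dKO 1 to 4, against 93.2, 58.7, 109.1 and 66.9 CPM in control 1 to 4, lowest in control 2 and control 4. Its log2 fold change of 0.32 ± 0.20 (SE, adjusted p = 0.63) was 0.0152 (adjusted p = 0.98) without these 2 libraries, 0.19 without control 2 alone, 0.49 without control 3 and 0.0652 with the follicular score in the model. Mxd4, which encodes a partner of MAX that opposes MYC, averaged 62.3 ± 8.80 CPM in dKO and 40.9 ± 4.27 CPM in control libraries (SD, n = 4 each). The groups did not overlap (log2 fold change 0.61 ± 0.15, SE, edgeR adjusted p = 0.14), and DESeq2 (0.026) and limma voom (0.021) called it higher. Nop56, Max and Ncl had log2 fold changes of −0.27 ± 0.16, −0.28 ± 0.20 and −0.03 ± 0.20 (SE, adjusted p = 0.60, 0.71 and 0.98). Without control 2 and control 4 that of Max was −0.13 and that of Ncl 0.0149, and without control 4 alone that of Nop56 was −0.17.

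Other cells whose transporter transcripts could enter these libraries were followed by their markers. Plasma cells are rich in CD98. The 12 plasma cell markers, 10 of them averaging 1 CPM or more and none at 0 in all libraries, summed to 3442 to 4169 CPM in dKO and 2217 to 3262 CPM in control libraries, without overlap. Most of that sum was Mzb1, and the 11 others summed to 321.4 to 446.2 CPM in dKO and 320.5 to 390.6 CPM in control libraries, which overlapped. Of the 12 markers 8 had positive and 4 negative log2 fold changes, and edgeR called none, DESeq2 2 and limma voom 1. Over all tested genes DESeq2 called 2.84% and limma voom 2.48%. Prdm1 was at 3.84 to 5.24 CPM in dKO and 0.707 to 2.81 CPM in control libraries, and Sdc1 at 0.0687 to 0.399 CPM in dKO and 0.146 to 3.64 CPM in control libraries. T cell markers (14, none at 0) summed to 1727 to 2681 CPM in dKO and 1646 to 2546 CPM in control libraries, mostly from Cd2, and without Cd2 to 182.7 to 338.2 CPM in dKO and 119.4 to 315.0 CPM in control libraries. NK cell markers (10, none at 0) summed to 68.1 to 186.5 CPM in dKO and 18.1 to 188.8 CPM in control libraries, and without Nkg7 to 15.8 to 32.0 CPM in dKO and 5.84 to 51.96 CPM in control libraries. Erythroid markers summed to at most 8.92 CPM in dKO and 7.36 CPM in control libraries, with 4 of 9 at 0 in every library. These 4 were the globin genes Hba-a1, Hba-a2, Hbb-bs and Hbb-bt, while Alas2 reached 7.15 CPM in dKO 4. The counts do not tell absent globin transcript from genes left uncounted, so this sum is not a measure of erythroid content. The part of these cells in the transporter levels was not tested.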

How the data were processed

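The table deposited by the authors holds unnormalised counts for each gene in 8 libraries. Per the submitters' processing notes, Trimmomatic, STAR and featureCounts were used with the GRCm39 build, and per the labels' protocols cDNA was made by SMART-seq. No source used here gives versions, the annotation or whether strand was used. The table's 3 unnamed columns were not used. Among counts under 20, 72.7% to 77.3% per library were even numbers, and the fit with halved counts is among the alternatives.

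Genes passing filterByExpr (11363 of 24746) were normalised by TMM. Genotype was tested in edgeR 4.0.16 under R 4.3.3 by the robust quasi-likelihood test, and p-values were adjusted after Benjamini and Hochberg over all genes. SE is the log2 fold change over the square root of F, and log2 CPM used a prior count of 2. The fit was tested on simulated data. The SE and the intervals come from this fit and include the spread between libraries of a group, at low counts as well.

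Alternatives were DESeq2 1.42.0, limma voom 3.58.1, other scalings, filters, covariates, a replicate block and leaving out libraries. The sample details used here give no sex, so the sex term is not a labelled factor. How the sexes divide between dKO and control is not given. Exon lengths and 3′ UTRs came from GENCODE M21 (GRCm38), another build, so no gene coordinates are given. Exact tests used scipy 1.17.1. All members were named, and from each related list the 4 genes with the smallest p and the most abundant one. Members and lists were chosen with earlier results of these data known.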

Additional observations from a re-analysis of the deposited data

How the results depend on the processing

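No member was called at an adjusted p under 0.05 in any of the 19 alternative fits, and none was under 0.1 in edgeR. The lowest adjusted p-values were those of limma voom for Slc38a9 (0.0923) and Slc7a7 (0.094), and the highest was 1 (Slc7a6). Slc7a5 was left out by the filter of CPM above 5 in at least 4 libraries. Direction held in all fits for 7 of the 9 tested members. Slc3a2 turned to 0.12 without control 2 and control 4 and to 0.0508 with the follicular B-2 covariate. Slc7a6, at 0.00, turned to 0.0123 with upper quartile scaling, 0.0514 with a sex term and 0.0988 in limma voom, and ran from −0.18 to 0.0693 with 1 library left out. With 1 library left out Lamtor5 ran from −0.26 to 0.13, Ncl from −0.16 to 0.0946 and Smc4 from −0.10 to 0.23. Lamtor5 was at 0.0018 in limma voom, and Ncl at 0.0035 with a sex term and 0.0149 without control 2 and control 4. The number of genes called over the whole table was 10, against 322 in DESeq2, 282 in limma voom, 40 without a filter, 28 with the follicular B-2 covariate, 59 without control 2 and control 4, 75 at an adjusted p under 0.1 and 4 to 98 with 1 library left out (leaving out control 1 gave 98, control 3 gave 30, control 2 gave 18, and dKO 2, 3 or 4 gave 4 each). The causes were not tested.

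Same-numbered libraries share only a number. Their deviations from the group means correlated at −0.009, −0.071, 0.061 and 0.149 for numbers 1 to 4, and not every library correlated best with its own number. With a replicate block 9 genes were called, no member among them, and the log2 fold change of Slc7a7 was 0.89. With the longest transcript as length, over all libraries Slc7a1 moved to position 6, Slc7a6 to 7, Slc38a1 to 4 and Slc1a5 to 5. At this depth Slc7a11 was not measurable and Slc7a5 rests on 8 to 60 counts per library.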
